A study of Mus musculus with 4 samples.

Results

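Cytosolic ribosomal proteins are the proteins that, with ribosomal RNA, make up the small and the large subunit of the ribosome outside the mitochondria. Their genes were taken here by symbol: entries whose symbol begins with Rps or Rpl and a digit, together with Rplp0, Rplp1, Rplp2 and Rpsa, without the kinase genes of the Rps6k series, Rps19bp1 and symbols that contain -ps. This gave 85 of the 23284 gene symbols in the tables, 33 of the small subunit (Rps symbols and Rpsa) and 52 of the large subunit (Rpl and Rplp symbols). Of these, 8 are paralogs of another member, namely Rps27l and Rps4y2 of the small subunit and Rpl3l, Rpl7l1, Rpl10l, Rpl22l1, Rpl36al and Rpl39l of the large subunit. No member symbol was repeated, and 16 symbols were left out by the exclusions. The choice by symbol leaves out, among others, Fau, whose product is a ribosomal protein made as a fusion, and Gnb2l1, which encodes the ribosome-bound protein RACK1; they are described further on.

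RNA came from CD4 T cells of BALB/c mouse spleens, cultured under Th1 conditions with IL-12 at 10 ng/ml and IL-2 at 15 ng/ml, over 4 days by one label and 5 days by another. The cultured cells were sorted by 2 surface proteins into CCR7hiCD137lo cells and CCR7loCD137hi cells, with 2 libraries of each, numbered 1 and 2. The chemokine receptor CCR7 draws T cells into lymph nodes, and CD137, encoded by Tnfrsf9, is a costimulatory receptor that appears on activated T cells. Both groups came from the same kind of culture, and the labels name no genotype, age or treatment that differs between them. Nothing in the labels says that the 2 libraries of a group came from separate mice or cultures, so p-values here speak only of the spread among these 4 libraries, and that spread may be technical.

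Each ribosome holds 1 copy of nearly every ribosomal protein, and cells make the proteins of both subunits in matched amounts. Many mRNAs of ribosomal proteins begin with a run of pyrimidines, the terminal oligopyrimidine (TOP) tract, through which mTOR and the binding protein LARP1 control their translation. T cells enlarge and make many more ribosomes after activation, and much of that control lies in translation, which mRNA levels do not show. Ribosomal protein genes also gave rise to many processed pseudogenes, intronless copies whose sequence is close or identical to the gene.

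The sorted proteins' genes followed the labels: Ccr7 stood at 93.4 and 118 FPKM in CCR7hiCD137lo cells and 39.6 and 38.2 FPKM in CCR7loCD137hi cells, and Tnfrsf9 at 0.961 and 6.25 FPKM in CCR7hiCD137lo cells and 158 and 184 FPKM in CCR7loCD137hi cells. Summed FPKM (fragments scaled by transcript length and library depth) of 6 CD4 T cell genes ran from 943 to 1195. The summed markers of CD8 T cells (2.63, 4.58, 12.2 and 3.99 FPKM for CCR7hiCD137lo replicates 1 and 2 and CCR7loCD137hi replicates 1 and 2), NK cells (0, 0, 2.29 and 0.381 FPKM) and B cells (0.0917, 0.145, 4.44 and 0.529 FPKM) were highest in CCR7loCD137hi replicate 1. Those of myeloid cells lay under 1 FPKM in each library. Relative to CCR7hiCD137lo replicate 1, the depth read from the steps between low values was 0.630 in CCR7hiCD137lo replicate 2, 0.564 in CCR7loCD137hi replicate 1 and 0.306 in CCR7loCD137hi replicate 2. Without CCR7loCD137hi replicate 1, the medians given below for the small and the large subunit were 0.16 and 0.24 in place of 0.11 and 0.21. Both CCR7loCD137hi libraries were less deep than both CCR7hiCD137lo libraries. Depth and group therefore cannot be told apart here, and the part of depth in the results was not tested.

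The ribosomal protein genes were among the most abundant mRNAs of these cells. Of the 100 genes with the highest mean FPKM, short RNA genes left out, 50 were members. The small subunit genes other than paralogs ran from 27.8 to 1990 FPKM (mean of 4 libraries) with a median of 853 FPKM, and those of the large subunit from under 0.001 to 3980 FPKM with a median of 548 FPKM. The highest member was Rpl41, which encodes the smallest ribosomal protein, a peptide with a coding sequence of 75 nt. It stood at 3436 and 3775 FPKM in CCR7hiCD137lo cells and 4407 and 4301 FPKM in CCR7loCD137hi cells, and by itself held 11.4% of the summed FPKM of the large subunit. For so short an mRNA the length correction in FPKM is uncertain. The next of the large subunit were Rplp1 of the ribosomal stalk, Rpl39, whose protein lines the tunnel through which the new chain leaves, and Rpl32. In the small subunit Rps20, Rps9, Rps15 and Rps4x were highest, each between 1789 and 1990 FPKM.

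The family held a larger share of the measured RNA in CCR7loCD137hi cells. Of summed FPKM it took 12.1% and 12.8% in the libraries of CCR7hiCD137lo and 13.4% and 13.8% in those of CCR7loCD137hi (replicate 1 before replicate 2), which is 12.4% ± 0.518 against 13.6% ± 0.351 (SD, n = 2 each). The share rose from library to library in the order in which relative depth fell, so depth and group cannot be told apart in it. In a bulk sample, fewer cells of a type and less RNA per cell cannot be told apart. The large subunit held 6.69% and 7.05% in CCR7hiCD137lo and 7.61% and 7.79% in CCR7loCD137hi, so its groups did not overlap. The small subunit held 5.38% and 5.75% in CCR7hiCD137lo and 5.75% and 6.06% in CCR7loCD137hi, where the 2 values of 5.75% overlapped, CCR7hiCD137lo replicate 2 being marginally the higher. That overlap came from Rps27, whose entry is split with another name as described further on. Without Rps27 the small subunit held 5.33% and 5.59% against 5.74% and 5.88%, and with entries on the same locus added 5.48% and 5.77% against 5.89% and 6.06%, both without overlap. With 2 libraries against 2, an exact two-sided permutation test cannot give a p under 0.333, so these shares carry no test. Short RNA genes, which such libraries measure poorly, took 18.2%, 17.2%, 14.9% and 17.3% of summed FPKM in the same order. With them left out of the total, the family's shares were 14.8% and 15.5% against 15.7% and 16.7%, still without overlap. The large subunit then held 8.18% and 8.52% against 8.94% and 9.42%. The small subunit held 6.58% and 6.94% against 6.75% and 7.33%, which overlapped. On this total the overlap remained without Rps27. CCR7hiCD137lo replicate 2 held 26702 of 395533 FPKM, marginally the larger part, and CCR7loCD137hi replicate 1 27432.9 of 406638 FPKM. The separation of the small subunit thus depended on the total used.

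**Figure D1:**
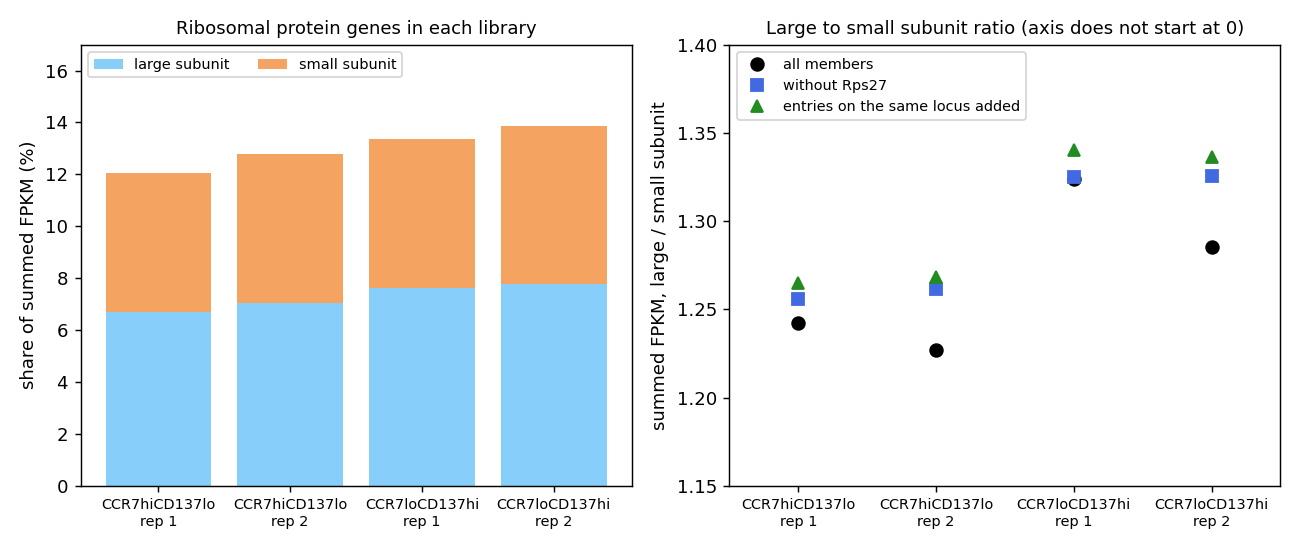
Left, the share of summed FPKM (%) held by the large and small subunit genes in each of the 4 libraries, stacked. Right, summed FPKM of the large subunit divided by that of the small subunit, for all members, without Rps27, and with entries on the same locus added; each point is 1 library, and on each of these 3 measures both CCR7loCD137hi libraries lie above both CCR7hiCD137lo libraries.

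Gene by gene the differences were small and mostly of one sign. Of the 85 members, 80 had a mean of at least 1 FPKM and were tested, 32 of the small and 48 of the large subunit; Rpl10l, Rpl26, Rpl39l, Rpl3l and Rps4y2 were below. On the log2(FPKM + 1) scale, CCR7loCD137hi minus CCR7hiCD137lo, the fitted value was above 0 for 29 of 32 small subunit genes and 47 of 48 large subunit genes, where 47.9% of all tested genes were above 0. After quantile normalization, which moved the median over all tested genes to -0.04, 13 small and 36 large subunit genes were above 0. The median was 0.11 for the small subunit (-0.02 after quantile normalization) and 0.21 for the large subunit, against -0.01 over all 10496 tested genes and 0.02 over the 632 other genes with a mean of at least 100 FPKM. No member passed limma's test at an adjusted p of 0.05, the smallest adjusted p being 0.537, while 6 of all tested genes did (0.0572%). At an unadjusted p under 0.05, 5 large subunit genes were higher in CCR7loCD137hi and no small subunit gene was (4.64% of all tested genes); no member of either subunit was lower at that level (3.49%).

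The separation of the libraries was wider in the large subunit. The CCR7loCD137hi pair of libraries lay above the other pair without overlap for 33 of 48 large and 16 of 32 small subunit genes, against 16.6% of all tested genes. The opposite order was found for 1 member, Rps29, against 21.5% of all tested genes. Within the libraries numbered 1 and within those numbered 2, the CCR7loCD137hi value was the higher both times for 44 large and 24 small subunit genes, against 33.0% of all tested genes, and the lower both times for Rps29 (35.9%). In the libraries numbered 1 the median difference was 0.21 for the large and 0.13 for the small subunit, and in those numbered 2 it was 0.17 and 0.12. The plot of member differences shows this order gene by gene.

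**Figure D2:**
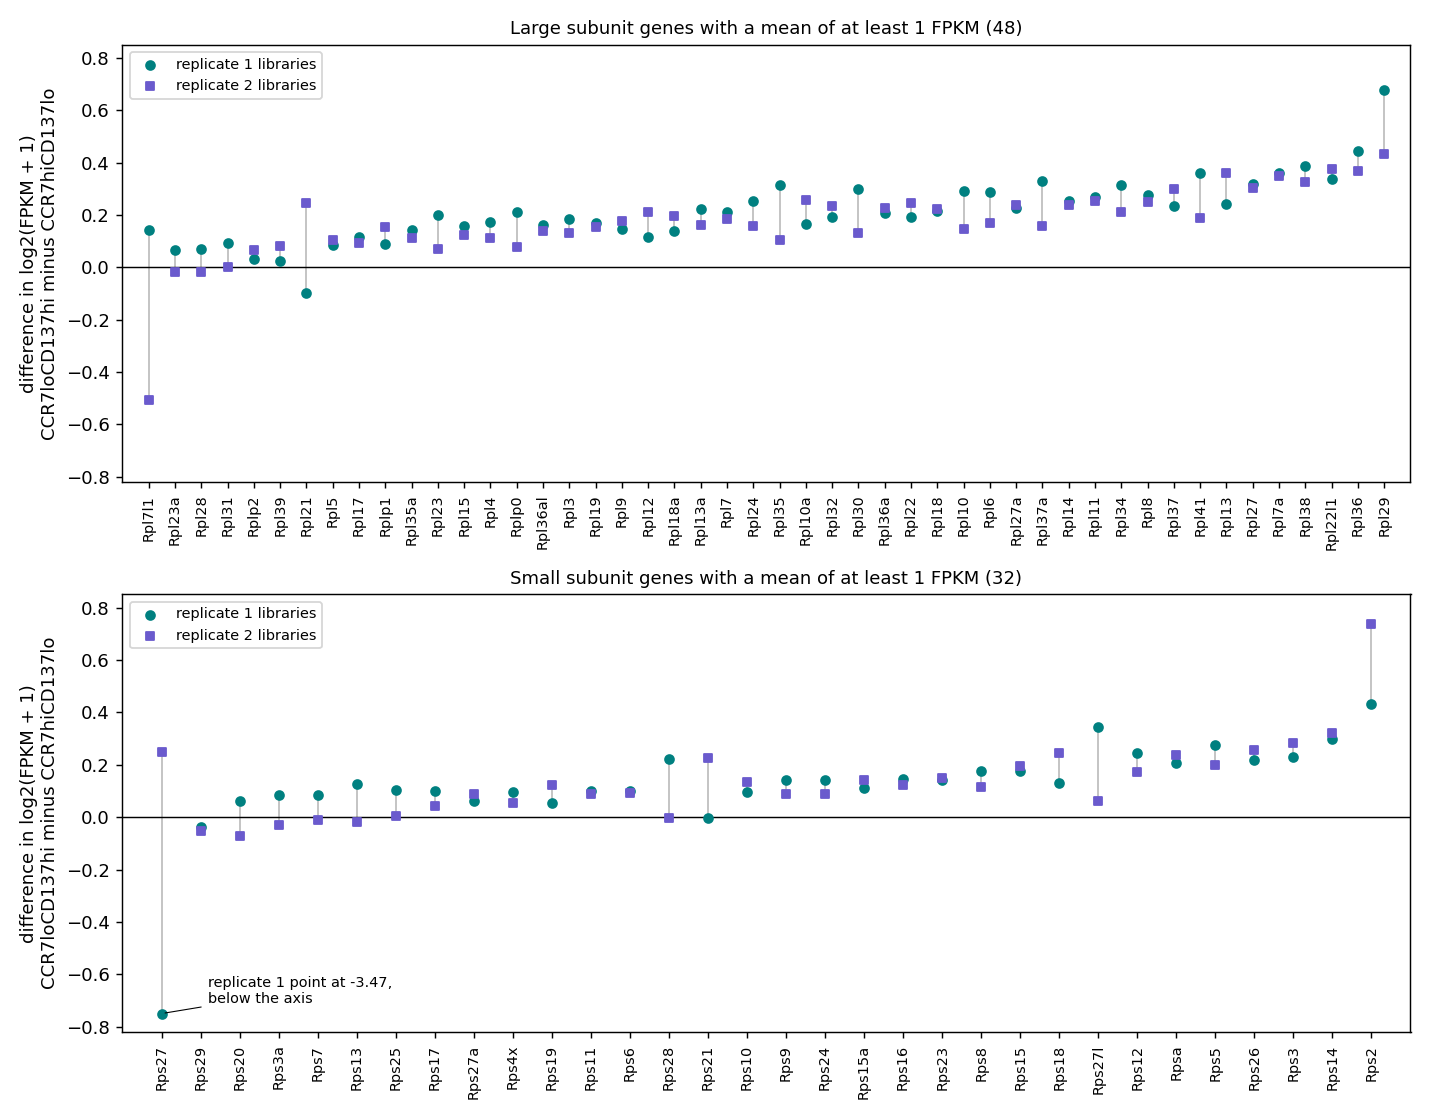
Difference in log2(FPKM + 1), CCR7loCD137hi minus CCR7hiCD137lo, for each of 48 large subunit genes (top) and 32 small subunit genes (bottom) with a mean of at least 1 FPKM, ordered by the mean of the replicate 1 libraries (circles) and replicate 2 libraries (squares). Most points of both panels lie above 0, with medians of 0.21 and 0.11 that quantile normalization moves to 0.08 and -0.02; the replicate 1 value of Rps27, at -3.47, is drawn at the lower edge.

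The size of these differences has to be read beside the difference between replicates and the scaling. Replicate 2 was higher than replicate 1 in both groups for 55 of the 80 members. The same held for 4690 of all 10496 tested genes and 189 of the 632 other genes of at least 100 FPKM. The median of replicate 2 minus replicate 1 was 0.12 in CCR7hiCD137lo for both subunits, and 0.10 for the large and 0.09 for the small subunit in CCR7loCD137hi, so the family moved between replicates by about as much as the small subunit differed between the groups. The sign for the small subunit depended on the scaling: after quantile normalization, which gives every library the same distribution of values, its median was -0.02 and that of the large subunit 0.08. When the values were centred on the other genes of at least 100 FPKM, the medians were 0.06 and 0.15, against -0.06 over all tested genes. Both CCR7loCD137hi libraries then lay above both others for 3 small and 13 large subunit genes, in place of 16 and 33. The 16.6% of all tested genes given above belongs to the values before centring, so these 2 counts have no share of all genes beside them. Leaving out CCR7hiCD137lo replicate 1 or CCR7loCD137hi replicate 2, the small subunit median was 0.06 each time and the large subunit median 0.14 and 0.15; leaving out either of the other libraries gave 0.16 for the small subunit and 0.25 and 0.24 for the large.

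The median of the large subunit was above that of the small subunit under each alternative run. The large subunit median exceeded that of the small subunit by 0.09 in the fit over all libraries, by 0.08 within the libraries numbered 1 and by 0.05 within those numbered 2. The same gap between the 2 replicates of a group was 0.0018 in CCR7hiCD137lo and 0.0087 in CCR7loCD137hi. It was 0.08 to 0.09 when each library was left out in turn, 0.10 after quantile normalization and 0.09 under the rescaling without short RNA genes. In summed FPKM, the ratio of large to small subunit was 1.24 and 1.23 in CCR7hiCD137lo and 1.32 and 1.29 in CCR7loCD137hi, a ratio within each library that no rescaling by a constant changes. It was 1.05 times as high in CCR7loCD137hi without Rps27, the member that was unstable between replicates, with 1.256 and 1.261 against 1.325 and 1.325. Without Rps27 and the very abundant Rpl41 it was 1.118 and 1.120 against 1.164 and 1.176. Both CCR7loCD137hi libraries were above both CCR7hiCD137lo libraries in each version.

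The 5 large subunit genes with an unadjusted p under 0.05 were Rpl38, Rpl36, Rpl22l1, Rpl7a and Rpl27. Rpl38 encodes a protein known for its part in the translation of Hox mRNAs in mouse embryos. It stood at 1021 and 1066 FPKM in CCR7hiCD137lo cells and 1335 and 1335 FPKM in CCR7loCD137hi cells, 2 tight pairs that did not overlap, with a log2 fold change of 0.36 (SE 0.10, unadjusted p = 0.0210, adjusted p = 0.537) by limma. Rpl36 stood at 609.7 and 687 FPKM in CCR7hiCD137lo cells and 829 and 888 FPKM in CCR7loCD137hi cells, again without overlap, with a log2 fold change of 0.41 (SE 0.12, unadjusted p = 0.0235, adjusted p = 0.537) by limma. Rpl7a, whose gene has 32 near-identical copies in the annotation, stood at 56.3 and 60.2 FPKM in CCR7hiCD137lo cells and 72.5 and 76.9 FPKM in CCR7loCD137hi cells. Its groups did not overlap, and its log2 fold change was 0.35 (SE 0.12, unadjusted p = 0.0345, adjusted p = 0.584) by limma. Rpl27, a gene mutated in some families with Diamond-Blackfan anemia, stood at 232 and 252 FPKM in CCR7hiCD137lo cells and 290.3 and 311 FPKM in CCR7loCD137hi cells. It too was separated, with a log2 fold change of 0.31 (SE 0.12, unadjusted p = 0.0488, adjusted p = 0.613) by limma. Rpl22l1 is described with the paralogs. After centring on other genes of at least 100 FPKM, none of the large subunit genes had an unadjusted p under 0.05 by limma. The share of all tested genes at that level after this centring is not given here. This count therefore cannot be read as a result of the family.

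The largest fitted value of the large subunit was that of Rpl29, which did not reach an unadjusted p under 0.05. It stood at 2.59 and 1.97 FPKM in CCR7hiCD137lo cells and 4.75 and 3.01 FPKM in CCR7loCD137hi cells, and its log2 fold change was 0.55 (SE 0.26, adjusted p = 0.687) by limma; its groups did not overlap, at a level far below the median of the subunit. The stalk, which recruits the translation factors that split GTP, is built from the products of Rplp0, Rplp1 and Rplp2. Rplp0 stood at 1129.96 and 1198 FPKM in CCR7hiCD137lo cells and 1307 and 1266 FPKM in CCR7loCD137hi cells, and its log2 fold change was 0.14 (SE 0.11, adjusted p = 0.774) by limma. Rplp1 stood at 2485 and 2477 FPKM in CCR7hiCD137lo cells and 2643 and 2757 FPKM in CCR7loCD137hi cells and Rplp2 at 856 and 941 FPKM in CCR7hiCD137lo cells and 876 and 985 FPKM in CCR7loCD137hi cells, where the first did not overlap and the second did. Their log2 fold changes were 0.12 and 0.05. The lowest values among large subunit genes other than Rpl7l1 belonged to Rpl23a (log2 fold change 0.03) and Rpl28 (0.03), whose differences were of opposite sign in replicates 1 and 2, and to Rpl31 (0.05). Proteins RPL23A and RPL31 sit at the rim of the exit tunnel. Rpl39, at 1864 and 2137 FPKM in CCR7hiCD137lo cells and 1898 and 2259 FPKM in CCR7loCD137hi cells, overlapped between the groups, with a log2 fold change of 0.05. Rpl32 stood at 1587 and 1812 FPKM in CCR7hiCD137lo cells and 1812 and 2134 FPKM in CCR7loCD137hi cells, where replicate 2 of the first group and replicate 1 of the second were level. Rpl3, whose protein reaches toward the site of peptide bond formation, stood at 562 and 642 FPKM in CCR7hiCD137lo cells and 639.7 and 702 FPKM in CCR7loCD137hi cells, also level between those libraries. The fitted values of Rpl23a, Rpl28, Rpl3, Rpl31, Rpl39, Rplp0 and Rplp2 turned below 0 under at least 1 of the other scalings. Rpl10, whose protein joins the subunit late in its assembly and is mutated in some T cell leukemias, stood at 365 and 332 FPKM in CCR7hiCD137lo cells and 447 and 368 FPKM in CCR7loCD137hi cells and had a log2 fold change of 0.22 (SE 0.15, adjusted p = 0.760) by limma. Rpl5 and Rpl11, chosen after their values were seen because their proteins with 5S RNA bind MDM2, stood at 410.04 and 451 FPKM against 435 and 485 FPKM and at 556 and 609 FPKM against 669.5 and 725 FPKM in CCR7hiCD137lo against CCR7loCD137hi; the first overlapped between the groups and the second did not.

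In the small subunit, Rps14, Rps3 and Rps26 had the highest fitted values among the abundant genes. Rps14, whose loss causes the anemia of the 5q deletion, stood at 577 and 629 FPKM in CCR7hiCD137lo cells and 709 and 785 FPKM in CCR7loCD137hi cells. Its groups did not overlap, and its log2 fold change was 0.31 (SE 0.12, unadjusted p = 0.0554, adjusted p = 0.624) by limma. Rps3, a protein of the mRNA entry channel, stood at 487 and 547 FPKM in CCR7hiCD137lo cells and 572 and 666 FPKM in CCR7loCD137hi cells, and its log2 fold change was 0.26 (SE 0.14, adjusted p = 0.718) by limma. Rps26 stood at 1025 and 1154 FPKM in CCR7hiCD137lo cells and 1194 and 1377 FPKM in CCR7loCD137hi cells, also without overlap, with a log2 fold change of 0.24 (SE 0.13, adjusted p = 0.729) by limma. Rpsa, which encodes the protein also called the laminin receptor, stood at 957 and 1039 FPKM in CCR7hiCD137lo cells and 1103 and 1226 FPKM in CCR7loCD137hi cells, and its log2 fold change was 0.22 (SE 0.12, adjusted p = 0.718) by limma. These 4 were separated between the groups, and none passed the test.

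The most abundant small subunit genes differed less. Rps20 stood at 1899 and 2091 FPKM in CCR7hiCD137lo cells and 1982 and 1988 FPKM in CCR7loCD137hi cells with a log2 fold change of -0.01, the CCR7loCD137hi values lying between the other pair. Rps9 stood at 1757 and 1880.2 FPKM in CCR7hiCD137lo cells and 1939.8 and 1996 FPKM in CCR7loCD137hi cells and had a log2 fold change of 0.11. Rps15, a protein of the subunit's head, stood at 1672 and 1808 FPKM in CCR7hiCD137lo cells and 1891 and 2068 FPKM in CCR7loCD137hi cells and had a log2 fold change of 0.19. Rps4x, the X-linked form of the gene, stood at 1694 and 1791 FPKM in CCR7hiCD137lo cells and 1812 and 1859.7 FPKM in CCR7loCD137hi cells and had a log2 fold change of 0.08. Except for Rps20, both CCR7loCD137hi libraries were the higher in each of these. Rps29, a zinc-binding protein, was the 1 member with both CCR7loCD137hi libraries below both others, at 1211 and 1192 FPKM in CCR7hiCD137lo cells and 1182 and 1149.96 FPKM in CCR7loCD137hi cells, and its log2 fold change was -0.04 (SE 0.10, adjusted p = 0.939) by limma. Rps3a was nearly level at 709 and 743 FPKM in CCR7hiCD137lo cells and 751 and 728 FPKM in CCR7loCD137hi cells, with overlap. Rps3a and Rps4x turned below 0 after quantile normalization, and Rps20 turned above 0 when all genes were centred.

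Apart from Rps27, the members ranked similarly in the 2 pairs of libraries that share no library. Across 79 tested members without Rps27, the difference in the libraries numbered 1 and that in the libraries numbered 2 had a Pearson's r of 0.57 and a Spearman's rho of 0.62; with Rps27, over all 80, r was 0.09 and rho 0.58. The replicate differences of the 2 groups, over the same 79 members, had an r of 0.80 and a rho of 0.67, so members ranked alike by replicate number at least as closely as by group. For the difference between groups within subunits, without Rps27, Rpl7l1, Rps2 and Rpl29, r was 0.56 over 46 large and 0.47 over 30 small subunit genes. No stated rule chose the genes left out, and Rpl30, past 1.5-fold between replicates, was kept. The points share their libraries' depth and scaling, and members are not independent replicates, so these are descriptions. Coding length (rho 0.02) and mean level (rho -0.10) had little relation to the log2 fold change across the same 79 members.

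Most members were steady between replicates. A difference of more than 1 on the log2(FPKM + 1) scale between the 2 replicates of a group, that is about 2-fold, was found for 1 of 80 members, Rps27, against 5.23% of all tested genes. At 1.5-fold, 4 members were past it, or 5%, against 18.4% of all tested genes. Among genes of at least 100 FPKM, 1 of 73 members and 18.4% of the 632 other genes were past 1.5-fold. The median absolute difference between replicates over all members was 0.13 in CCR7hiCD137lo and 0.12 in CCR7loCD137hi, against 0.19 and 0.24 over all tested genes.

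Rps27, which encodes a zinc-finger protein of the small subunit (chr3:90212667-90213648, minus strand, mm10), was the exception. It stood at 269.9 and 753 FPKM in CCR7hiCD137lo cells and 23.5 and 894 FPKM in CCR7loCD137hi cells. On the log2 scale the replicates differed by 1.48 in CCR7hiCD137lo and by 5.19 in CCR7loCD137hi. The log2 fold change between the groups was -1.61 (SE 1.80, adjusted p = 0.858) by limma, in size close to the first and far under the second. It rests on CCR7loCD137hi replicate 1, and without that library it was 0.99. The tables hold a second entry on the same locus, Gm9846, whose span differs from that of Rps27 by 1 base. Gm9846 stood at 468 and 115 FPKM in CCR7hiCD137lo cells and 684 and 1.001 FPKM in CCR7loCD137hi cells, high where Rps27 was low and low where Rps27 was high. The sum of both entries was 738 and 867 FPKM in CCR7hiCD137lo and 708 and 895 FPKM in CCR7loCD137hi, with a log2 fold change of -0.01, and in that sum the replicates of neither group differed by more than 0.34. So the share of the locus given to each name varied from library to library while the locus total varied little.

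RefSeq (GRCm38.p6) uses the name Gm9846 as a synonym of Rps27rt, a protein-coding retrogene of Rps27 at chr9:114982366-114982739, not for the chromosome 3 locus where the tables place it. Over the 252 coding bases of Rps27 the GENCODE sequences of Rps27 and Rps27rt have 0 mismatches, whereas the paralog Rps27l is 76.2% identical. The first 60 coding bases are shown because they show which of these genes can be told apart in this stretch; capitals mark the 18 bases at which Rps27 and Rps27l differ, and Rps27rt, in lower case, has the same bases as Rps27 throughout.
Rps27: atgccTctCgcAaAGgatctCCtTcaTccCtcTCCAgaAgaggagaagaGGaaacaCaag
Rps27l: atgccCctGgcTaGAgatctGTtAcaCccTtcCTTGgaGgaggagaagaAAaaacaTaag
Rps27rt: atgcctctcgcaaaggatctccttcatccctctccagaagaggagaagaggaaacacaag

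Another 3 members shared their locus with an entry that RefSeq places elsewhere as a copy of the gene, with spans overlapping by at least 80% both ways. Rpl26, on chr11:68901566-68904534 with its protein at the exit side of the subunit, was listed under 0.001 FPKM in every library, and so was not tested. The entry Gm15772 on that locus stood at 842 and 957 FPKM in CCR7hiCD137lo cells and 1045 and 1143 FPKM in CCR7loCD137hi cells, a level usual for the family, with both CCR7loCD137hi libraries the higher and a difference of 0.28 on the log2 scale. RefSeq places Gm15772, a transcribed pseudogene, at chr5:3236390-3236928, and its sequence differs from the 435 coding bases of Rpl26 by 2 mismatches. Rpl30, on chr15:34440508-34443276, stood at 25.4 and 18.1 FPKM in CCR7hiCD137lo cells and 31.4 and 19.9 FPKM in CCR7loCD137hi cells, while Gm12191 on the same locus stood at 316 and 333 FPKM in CCR7hiCD137lo cells and 317 and 361 FPKM in CCR7loCD137hi cells. RefSeq places that pseudogene at chr11:49678620-49679143, with 1 mismatch over 345 coding bases. The sum of Rpl30 and Gm12191 was 341 and 351 FPKM in CCR7hiCD137lo and 348 and 380.4 FPKM in CCR7loCD137hi, and that sum differed by 0.07 on the log2 scale. Rpl34 was the reverse: its own entry held the level, at 757 and 854 FPKM in CCR7hiCD137lo cells and 941 and 989 FPKM in CCR7loCD137hi cells, and Rpl34-ps1 on its locus was under 0.005 FPKM in every library. In all 4 cases the authors' tables divided 1 locus between 2 names, and for Rps27, Rpl26 and Rpl30 the level under the member's name is not the level of the locus.

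**Figure D3:**
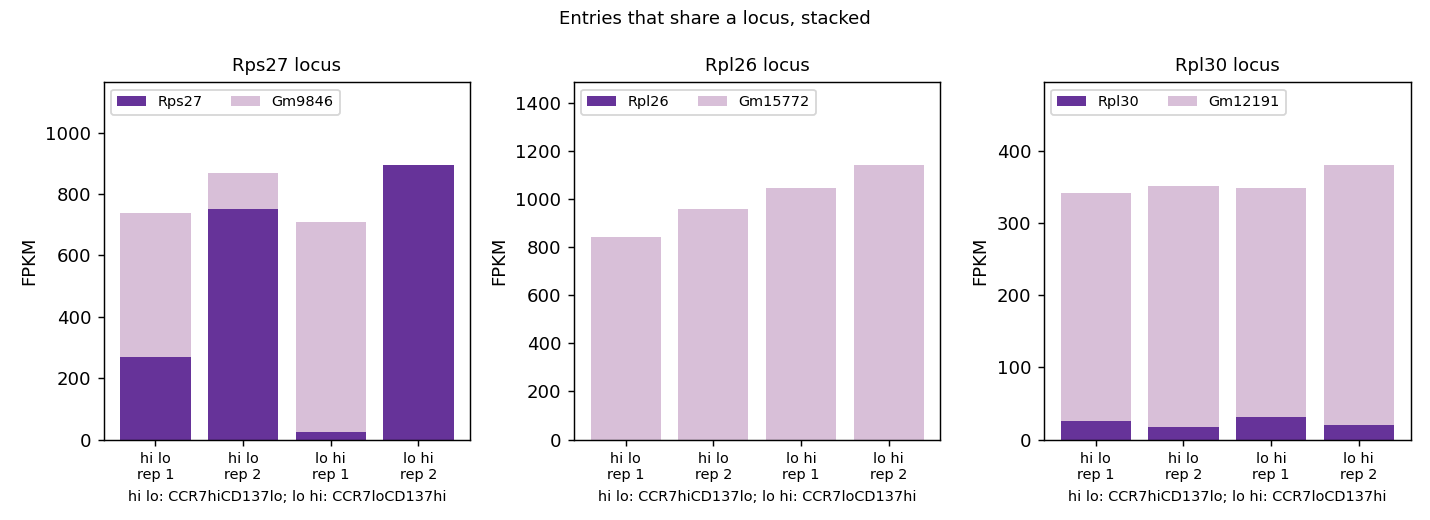
FPKM in each of the 4 libraries of Rps27, Rpl26 and Rpl30 (dark) and of the entry that shares the locus (light), stacked so that the bar top is the sum. At the Rps27 locus the dark part runs from 23.5 to 894 FPKM while the sum stays between 708 and 895 FPKM; Rpl26 is too low to be seen.

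With the entries on a shared locus added to their member, an alternative chosen after these values were seen, no member was past the 2-fold limit between replicates. The median log2 fold change was 0.11 for 32 small and 0.20 for 49 large subunit genes. The ratio of large to small subunit became 1.265 and 1.268 in CCR7hiCD137lo and 1.340 and 1.336 in CCR7loCD137hi, closer within each group than the ratio of the entries as named. The family's share of summed FPKM was then 12.4% and 13.1% against 13.8% and 14.2%.

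Past 1.5-fold between replicates but under 2-fold were Rpl7l1, Rpl30 and Rps2. Rps2, a protein at the mRNA entry of the small subunit, stood at 19.5 and 24.1 FPKM in CCR7hiCD137lo cells and 26.7 and 40.8 FPKM in CCR7loCD137hi cells. The CCR7loCD137hi libraries were both the higher and differed most from each other, and the log2 fold change of 0.58 (SE 0.25, adjusted p = 0.656) by limma was the highest of the small subunit. Its mRNA has 23 near-identical copies in the annotation, and its level is far below the subunit's median. With the locus sums in place of the named entries, Rpl7l1 and Rps2 remained past 1.5-fold.

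Low levels in this family went with copies in the annotation. A near-identical copy was counted where another GENCODE gene has at least 95% identity over at least 80% of a member's coding sequence. Among 77 members other than paralogs, the 34 with at most 4 copies all stood at 130 FPKM or higher, with a median of 801 FPKM. Of the 5 with 20 or more, 4 were under 100 FPKM: Rpl21 with 57 copies at 1.22 FPKM, Rpl29 with 28 copies at 3.08 FPKM, Rps2 with 23 at 27.8 FPKM and Rpl7a with 32 at 66.5 FPKM. Rpl17, with 22 copies, stood at 113 FPKM. Across the 77 genes the number of copies and the log2 mean level had a Pearson's r of -0.62 and a Spearman's rho of -0.38, which is a description across genes. Reads that fit several copies cannot be placed by sequence, and how the authors counted them is not given in the sources used here. The levels of these members are therefore uncertain.

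**Figure D4:**
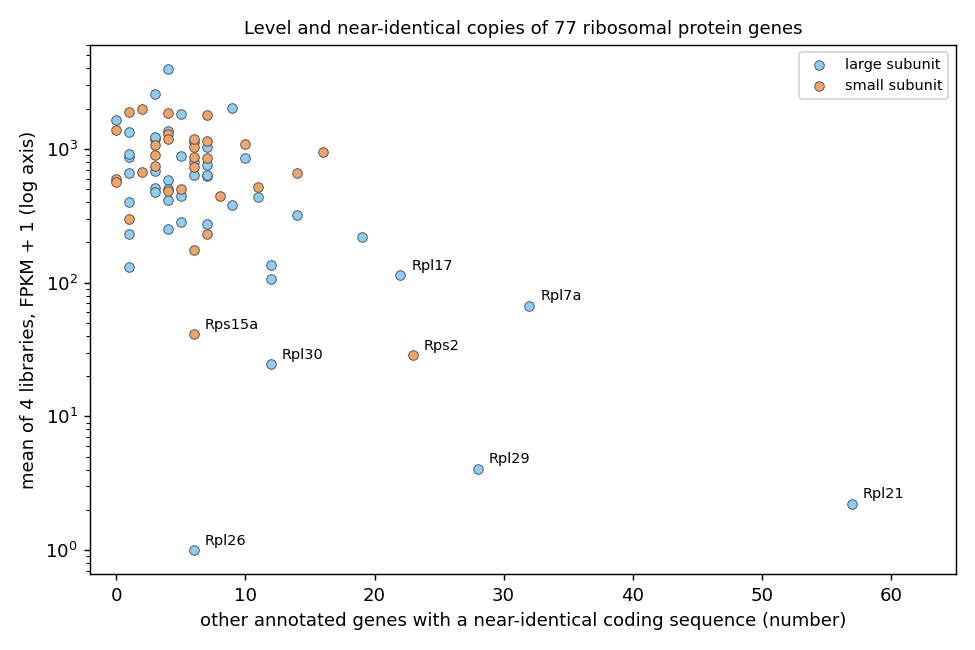
Mean FPKM + 1 over the 4 libraries (log axis) against the number of other annotated genes with a near-identical coding sequence, for 77 ribosomal protein genes other than paralogs, coloured by subunit. The genes with the most copies (Rpl21, Rpl7a, Rpl29, Rps2, Rpl17) lie at or under 113 FPKM, while the 34 genes with at most 4 copies lie at 130 FPKM or higher; with 5 to 19 copies, 3 genes lie under 100 FPKM, namely Rps15a and, sharing their locus with another entry, Rpl26 and Rpl30.

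For some members, a copy with an entry of its own carried a level comparable to the gene. Rps15a stood at 35.8 and 41.04 FPKM in CCR7hiCD137lo cells and 38.7 and 45.4 FPKM in CCR7loCD137hi cells, below its pseudogenes Rps15a-ps6 at 103 and 122 FPKM in CCR7hiCD137lo cells and 112 and 141 FPKM in CCR7loCD137hi cells and Rps15a-ps4 at 77.2 and 84.8 FPKM in CCR7hiCD137lo cells and 77.1 and 99.1 FPKM in CCR7loCD137hi cells. Rpl31 stood at 130.4 and 133 FPKM in CCR7hiCD137lo cells and 139 and 133 FPKM in CCR7loCD137hi cells, and Rpl31-ps12, 98.9% identical, at 405 and 410.3 FPKM in CCR7hiCD137lo cells and 441 and 399 FPKM in CCR7loCD137hi cells. Rps24 stood at 815 and 823 FPKM in CCR7hiCD137lo cells and 899.99 and 875 FPKM in CCR7loCD137hi cells, and the transcribed pseudogene Gm9320 at 895 and 1021 FPKM in CCR7hiCD137lo cells and 954 and 1107 FPKM in CCR7loCD137hi cells. In these the copy and the gene showed like differences between the groups. On the log2 scale they were 0.04 for Rpl31-ps12 and 0.05 for Rpl31, 0.17 for Rps15a-ps6 and 0.13 for Rps15a. For Gm9320 and Rps24 they were 0.10 and 0.12. Some other copies were less close to their gene, as with Gm15421 at 0.23 and Rpl22l1 at 0.36. Gm8580, a copy of Rpl29 under 1 FPKM, was at 0.01, and Rpl29 at 0.55.

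Of the 8 paralogs, 4 were expressed above 1 FPKM. RPL22 is needed for the development of alpha-beta T cells, and Rpl22l1 encodes its paralog, which can take its place in the ribosome. Rpl22l1 stood at 148 and 156 FPKM in CCR7hiCD137lo cells and 188 and 202 FPKM in CCR7loCD137hi cells without overlap, with a log2 fold change of 0.36 (SE 0.11, unadjusted p = 0.0301, adjusted p = 0.572) by limma. Rpl22 stood at 115 and 125 FPKM in CCR7hiCD137lo cells and 132 and 149 FPKM in CCR7loCD137hi cells, also separated, with a log2 fold change of 0.22 (SE 0.13, adjusted p = 0.735) by limma. The ratio of Rpl22l1 to Rpl22 was 1.28 and 1.24 in CCR7hiCD137lo and 1.42 and 1.36 in CCR7loCD137hi, so the paralog was the higher of the pair in all 4 libraries, and its lead was larger in CCR7loCD137hi; this ratio carries no test. Their coding sequences are 66.9% identical, while a transcribed pseudogene 99.5% identical to Rpl22l1, Gm15421, has an entry of its own at 88.7 and 101 FPKM in CCR7hiCD137lo cells and 102 and 120.3 FPKM in CCR7loCD137hi cells.

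Rpl36al, a paralog 87.7% identical to Rpl36a, stood at 647 and 609 FPKM in CCR7hiCD137lo cells and 724 and 671 FPKM in CCR7loCD137hi cells, and Rpl36a at 250.5 and 269.8 FPKM in CCR7hiCD137lo cells and 289 and 316 FPKM in CCR7loCD137hi cells. Their ratio was 2.58 and 2.26 in CCR7hiCD137lo and 2.50 and 2.13 in CCR7loCD137hi, so it was lower in CCR7loCD137hi within both replicate numbers, while the replicates of a group differed by more than the groups did. The first 60 coding bases of both follow, with the 11 differing bases in capitals, to show where the pair differs in this stretch.
Rpl36a: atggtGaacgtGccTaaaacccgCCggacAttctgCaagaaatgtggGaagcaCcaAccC
Rpl36al: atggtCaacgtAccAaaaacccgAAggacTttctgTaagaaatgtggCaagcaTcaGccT
Rps27l, a paralog induced by p53, stood at 252 and 228 FPKM in CCR7hiCD137lo cells and 319 and 238 FPKM in CCR7loCD137hi cells, with 1 CCR7loCD137hi library well above the others and a log2 fold change of 0.20 (SE 0.18, adjusted p = 0.817) by limma. Rpl7l1, a protein of nucleolar ribosome assembly, was the 1 paralog with a fitted value below 0, at 34.9 and 31.7 FPKM in CCR7hiCD137lo cells and 38.7 and 22.00 FPKM in CCR7loCD137hi cells, where CCR7loCD137hi spanned both other libraries. The log2 fold change of Rpl7l1 was -0.18 (SE 0.29, adjusted p = 0.900) by limma, and without CCR7loCD137hi replicate 2 it was 0.21. Its parent Rpl7 stood at 918 and 1016 FPKM in CCR7hiCD137lo cells and 1063 and 1154 FPKM in CCR7loCD137hi cells, separated between the groups. The remaining paralogs were near or at 0: Rpl10l was listed at 0 in every library, Rpl3l reached 0.0414 FPKM, Rpl39l 0.383 FPKM and Rps4y2 0.582 FPKM. Rpl3l is known as a paralog of heart and skeletal muscle, and Rpl10l and Rpl39l as paralogs of the male germ line.

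The start sites of the members share a feature that the choice by symbol did not use. In windows from 20 bases before to 50 bases after the RefSeq start (GRCm38.p6), an unbroken run of 8 or more bases that are all C or T was looked for on the transcript's strand. RefSeq windows matched 64 members, and 46 of them (71.9%) held such a run, 30 of 40 in the large and 16 of 24 in the small subunit, against 25.4% of 32851 RefSeq start windows. On the opposite strand, the same run was found in 10.9% of the members and 28.7% of all windows. Members with and without a run had median log2 fold changes of 0.19 (44 tested) and 0.14 (16 tested). A run is a description of these letters and does not show where transcription starts in these cells.

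Below, 30 bases around the longest run of C and T in the start window are printed for some members described above. They are Rpl38, Rpl22l1 and Rpl7a, with an unadjusted p under 0.05 by limma, and Rps27 with its paralog Rps27l. Rpl39 and Rps9 are printed as abundant members, with log2 fold changes of 0.05 and 0.11. The value of Rps9 is close to the median of its subunit. Capitals mark the longest run.
Rpl38: aagcggaagcctcgTTCTTTCCCCgttctc
Rpl22l1: gcggcgcaagcccgTTCTCTTCCCacggct
Rpl7a: caaTTCCCTCTTCTTTCTTTCTCCagcagc
Rpl39: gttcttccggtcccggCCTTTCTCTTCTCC
Rps9: ggtccaaccgccttgTCTCTCTTTgtctcg
Rps27: ggatttccgctttcgCTCCTTTCCggcggt
Rps27l: ctccactcctctccaCTCCTCCCCgccgcc
These lie at chr11:114668564-114668593 (+ strand), chr3:28805495-28805524 (+ strand), chr2:26910790-26910819 (+ strand), chrX:37085173-37085202 (- strand), chr7:3704020-3704049 (+ strand), chr3:90213636-90213665 (- strand) and chr9:66946059-66946088 (+ strand). The run of Rpl7a is the longest of these, at 21 bases, and those of Rps9, Rps27 and Rps27l are 9 bases long. The RefSeq start lies within the run of Rpl38, Rpl7a, Rps9 and Rps27. The run of Rpl22l1 begins 1 base after the RefSeq start, and that of Rps27l lies before it. For Rpl39 the run begins 36 bases after the RefSeq start, which the printed stretch does not hold. The deposited start differs from the RefSeq start by 37 bases for Rpl38, 38 for Rpl39, 32 for Rps27l and 3 for Rpl22l1. By the deposited start, Rpl39 and Rpl22l1 begin within the run, and Rpl38 begins before the printed stretch. Rpl38 and Rps9, with the RefSeq start inside a run, had log2 fold changes of 0.36 and 0.11. No run was found in the window of Rpl27, which is among the 5 genes above.

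Genes linked to the ribosome that are not members were read from lists. None of the genes of these lists passed limma's test. Fau and Gnb2l1 were both above 0, with log2 fold changes of 0.22 and 0.19. Fau stood at 785 and 1022 FPKM in CCR7hiCD137lo cells and 985 and 1109 FPKM in CCR7loCD137hi cells with overlap, and Gnb2l1 at 1065 and 1102 FPKM in CCR7hiCD137lo cells and 1221 and 1249 FPKM in CCR7loCD137hi cells without it. Of 12 elongation factor and other TOP mRNA genes 9 were above 0, with a median of 0.14. The most abundant of them, Eef1a1, stood at 4071 and 4402 FPKM in CCR7hiCD137lo cells and 4169 and 4814 FPKM in CCR7loCD137hi cells with overlap, and Tpt1 at 2491 and 2727 FPKM in CCR7hiCD137lo cells and 2395 and 2695 FPKM in CCR7loCD137hi cells, with a log2 fold change of -0.04. Chaperones of single ribosomal proteins hold new proteins until they enter the ribosome. Of 11 genes listed here under that heading, not all of which need be such chaperones, 2 were above 0 and the median was -0.08. Only Aamp had both CCR7loCD137hi libraries above both others, at 61.3 and 69.2 FPKM in CCR7hiCD137lo cells and 75.6 and 82.2 FPKM in CCR7loCD137hi cells. The most abundant on that list was Nap1l1, at 206 and 173 FPKM in CCR7hiCD137lo cells and 191 and 161 FPKM in CCR7loCD137hi cells.

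Of 10 tested genes that control ribosomal protein synthesis, 5 were above 0, with a median of -0.02. Eif4ebp2, which encodes a repressor of cap-dependent translation that mTOR switches off, stood at 58.2 and 64.1 FPKM in CCR7hiCD137lo cells and 44.7 and 49.3 FPKM in CCR7loCD137hi cells. It was lower in both CCR7loCD137hi libraries, with a log2 fold change of -0.37 (SE 0.13, unadjusted p = 0.0385, adjusted p = 0.605) by limma. Its paralog Eif4ebp1, added after its values were seen, stood at 32.8 and 53.03 FPKM in CCR7hiCD137lo cells and 55.2 and 103 FPKM in CCR7loCD137hi cells, higher in both CCR7loCD137hi libraries, with a log2 fold change of 0.84 (SE 0.39, adjusted p = 0.685) by limma. Myc, which encodes a transcription factor that drives ribosome production, stood at 81.5 and 122 FPKM in CCR7hiCD137lo cells and 116 and 158 FPKM in CCR7loCD137hi cells and overlapped, and Max, its partner, at 99.6 and 83.7 FPKM in CCR7hiCD137lo cells and 76.2 and 50.03 FPKM in CCR7loCD137hi cells without overlap. Among 4 genes of the response to free ribosomal proteins, in which RPL5 and RPL11 block MDM2 and so release p53, Cdkn1a stood at 39.1 and 84.1 FPKM in CCR7hiCD137lo cells and 143 and 189 FPKM in CCR7loCD137hi cells. It was the higher in CCR7loCD137hi, though its 2 CCR7hiCD137lo libraries also differed by more than 2-fold, with a log2 fold change of 1.5 (SE 0.40, unadjusted p = 0.0156, adjusted p = 0.501) by limma. Trp53 stood at 76.01 and 72.3 FPKM in CCR7hiCD137lo cells and 77.97 and 67.1 FPKM in CCR7loCD137hi cells and overlapped between the groups.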

How the data were processed

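RNA was measured in 4 libraries of sorted mouse CD4 T cells, 2 per group, extracted with TRIzol and prepared with a TruSeq Stranded mRNA kit per the labels' protocols. FPKM values were deposited by the authors in 1 gene table for every library, with Cufflinks columns per the file headers. The submitters' processing notes list TopHat 1.3.2, Bowtie 0.12.8, Cufflinks 2.0.2 and build mm10. What was done with multiply placed reads, strand and scaling is not given in the sources used here.

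Where a symbol had several entries, the one with the highest mean FPKM was used. Starts were raised by 1, since 54 members' starts then equalled the RefSeq start. Genes with a mean of at least 1 FPKM were tested on log2(FPKM + 1), which understates changes of low genes, with limma 3.58.1 in R 4.3.3 (variance trend, two-sided, Benjamini-Hochberg over 10496 genes, threshold 0.05; 2 residual and 2.54 prior degrees of freedom). The script was tested on simulated data. Absolute depth was not estimated; the relative depths rest on genes under 0.3 FPKM, where 63.8%, 65.5% and 65.1% of ratios to CCR7hiCD137lo replicate 1 lay within 0.002 (natural log) of a ratio of whole fragments up to 6. Copies were found with BLAST 2.17.0 against GENCODE M21 transcripts, and coding sequences come from GENCODE M21. Tables and plots were made in Python 3.11.15 with pandas 2.3.3, numpy 2.4.6, scipy 1.17.1 and matplotlib 3.10.9.

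Named genes were, in each subunit, the 4 most expressed, the 4 highest and 4 lowest log2 fold changes, members with an unadjusted p under 0.05 or unstable between replicates, the stalk genes, Rpsa, and paralogs with their parents; of the other lists, those with an unadjusted p under 0.05 and the 2 most expressed. Others were chosen after their values were seen. One gene of these lists is not reported here. Members and lists were chosen with earlier results of these data known. Alternatives were the pseudocount, the filter, scalings, leaving out each library, and the replicate number as a block.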

Additional observations from a re-analysis of the deposited data

How the results depend on the processing

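No member was called at an adjusted p of 0.05 under any alternative run. The 6 genes called among all tested genes became 1 with no filter, 2 after quantile normalization, 2 without the variance trend and 12 to 30 when each library was left out. With the replicate number as a block, 42 were called. In that fit 8 small and 25 large subunit genes had an unadjusted p under 0.05 by limma, in place of 0 and 5. The shares of all tested genes at that level, 4.64% higher and 3.49% lower, are from the fit without the block. The share under the block is not given here, so these counts cannot be read as a result of the family. The labels do not say that a number marks a shared mouse, culture or day. Across 10496 genes the replicate differences of the 2 groups had a Pearson's r of 0.21 and a Spearman's rho of 0.64. After quantile normalization the median of the small subunit turned to -0.018 and that of the large subunit moved to 0.083. At 1.5-fold between replicates, 4 members were unstable in place of 1 at 2-fold; with same-locus entries added (an alternative chosen after seeing the data), 0 were at 2-fold and 2, Rpl7l1 and Rps2, at 1.5-fold. Of 559 values of single named genes under an alternative, 36 changed sign and 523 kept it; for the changes that follow the cause was not tested. Quantile normalization changed the sign of Rpl23a (-0.0094), Rpl28 (-0.072), Rpl3 (-0.026), Rpl39 (-0.044), Rplp0 (-0.060), Rplp2 (-0.12), Rps3a (-0.091) and Rps4x (-0.028), rescaling to a common sum that of Rpl23a (-0.0066), Rpl28 (-0.0065) and Rps3a (-0.0048), and rescaling without short RNA genes that of Rpl23a (-0.034), Rpl28 (-0.034), Rpl31 (-0.011), Rpl39 (-0.0064), Rplp2 (-0.0098) and Rps3a (-0.032). Centring on all genes changed Rps20 (0.0020), and centring on other genes of at least 100 FPKM (added after seeing the data) changed Rpl23a (-0.027), Rpl28 (-0.027), Rpl31 (-0.0044), Rplp2 (-0.0028) and Rps3a (-0.025). When each library was left out in turn, 9 named genes held values of both signs, with these ranges: Rpl23a -0.047 to 0.097, Rpl28 -0.098 to 0.15, Rpl39 -0.072 to 0.18, Rpl7l1 -0.57 to 0.21, Rplp2 -0.035 to 0.13, Rps20 -0.075 to 0.064, Rps27 -4.21 to 0.99, Rps27l -0.0099 to 0.41, Rps3a -0.0066 to 0.061. A library left alone in its group is assumed to vary like the other group.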
